A study of Mus musculus with 25 samples.

Results

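The duodenum of mice with an Aldh2 knock-in (KI) was compared with that of wild-type (WT) mice on the milder of the study's ethanol regimens. The members were the 6 libraries labelled KI_Half (replicates 1, 2, 3, 5, 6 and 7) and the 7 labelled WT_Half (replicates 1 to 7), 13 of the 25 libraries of the series, chosen by those labels. KI_Half mice were male Aldh2KI mice and WT_Half mice male C57BL/6N mice, 8 weeks old at the start. Both groups had ethanol at 2.5% in the diet over 8 weeks, with gavages of ethanol at 2 g/kg given 2 times a week. Collection followed 9 h after the final dose, given as 5 g/kg without saying whether these groups received it. The labels do not name the knocked-in allele. The 4 KI_Con and 4 WT_Con libraries, from mice of the same genotypes on a control diet, served for comparison, and the labels give them no ethanol dose. Polyadenylated RNA of whole duodenum was sequenced. The labels do not say whether replicates came from separate animals, litters or cages, so p-values measure the spread between these libraries.

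The ALDH2 protein is a mitochondrial dehydrogenase that turns the acetaldehyde made from ethanol into acetate. Enterocytes of the duodenum meet swallowed ethanol directly, and their brush border carries the enzymes and carriers that finish digestion. When the epithelium is stressed or injured it can secrete chemokines that draw neutrophils, make oxidants at its surface, and switch on the integrated stress response (ISR), a programme run by the transcription factor ATF4 that supplies amino acids and glutathione.

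Library totals were 27.6 to 34.6 M (mega) counts in KI_Half and 30.2 to 41.0 M in WT_Half. Levels below are counts per M (CPM), and the 3 values of a group are its lowest, median and highest library. Differences are log2 of KI_Half over WT_Half ± standard error (SE), with adjusted p-values from edgeR's quasi-likelihood F test over 16907 genes, which ran from 0.106 to 0.35 for the 89 genes chosen for description. Aldh2 itself had 314, 346 and 462 CPM in KI_Half and 293, 467 and 508 CPM in WT_Half. The Aldh2 transcript was thus counted in both genotypes, and its level does not check the genotype labels. Summed markers of the Brunner glands, the mucous glands of the duodenal wall, varied from 34.4 to 7174 CPM in KI_Half and from 46.5 to 16945 CPM in WT_Half. Pancreatic acinar markers summed to at most 20.5 CPM. The first principal component (33.7% of the variance of 500 genes) placed KI_Half 1, 2, 3 and 5 at 18.3 to 28.8, KI_Half 6 at -1.14 and KI_Half 7 at -22.6, against -31.6 to 4.44 in WT_Half. KI_Half 6 and 7 therefore lay among the WT_Half libraries on this component. Among the control-diet libraries, WT_Con 3 stood apart in Brunner gland genes (mean log2 CPM of 10.31, next 7.30) and WT_Con 1 in interferon-stimulated genes (5.71, next 4.63).

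No gene passed an adjusted p of 0.05 with edgeR (0 of 16907, 0%), so every difference below is a measured difference that did not pass over all genes. At an unadjusted p under 0.05, 1239 genes (7.33%) were higher and 1281 (7.58%) lower in KI_Half. The counts of higher and lower members of gene lists below use this rule and are to be set against these shares. A positive difference was found for 46.86% of all genes. Values that did not overlap between the groups were found for 20 genes that were higher (0.118%) and 25 that were lower (0.148%). Other tools made calls on the same counts. DESeq2 called 120 genes higher (0.71%) and 51 lower (0.302%), and limma-voom with sample weights called 632 (3.74%) and 812 (4.8%). DESeq2 and limma-voom shared 150 of these genes, which is 87.7% of the DESeq2 calls and 10.4% of those of limma-voom. The authors' deposited table lists 153 genes as higher and 58 as lower, and 118 of them were among the 171 called by DESeq2 here.

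One library changed the edgeR count. Without KI_Half replicate 7, 72 genes (0.425%) were higher and 31 (0.183%) lower at an adjusted p under 0.05. Without WT_Half replicate 2, Tmem116 passed alone. Leaving out each other library in turn gave 0.

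**Figure D1:**
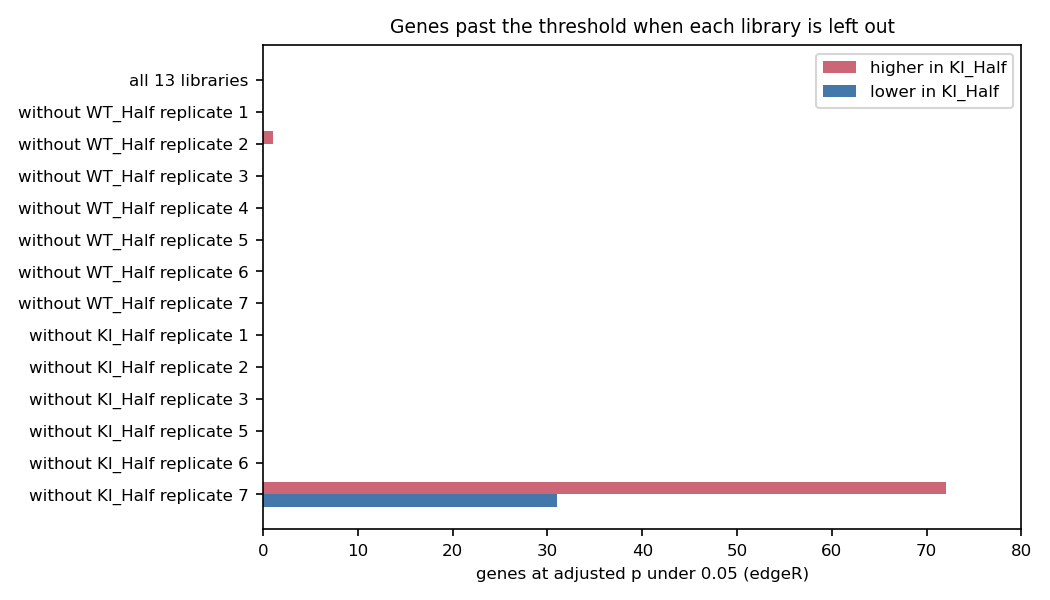
Number of genes at an adjusted p under 0.05 with edgeR (x axis) when all 13 libraries are used and when each is left out in turn (y axis), with genes higher in KI_Half in red and lower in blue. Only the fit without KI_Half replicate 7 reaches 72 and 31 genes.

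Among the 12 genes higher in KI_Half with the smallest p were a chemokine, a nitric oxide synthase, a secreted stress cytokine and a neuropeptide. Ccl20, which attracts CCR6-bearing lymphocytes and dendritic cells (ENSMUSG00000026166, GRCm38 chromosome 1, 83116766 to 83119167), had 1.42, 98.6 and 183 CPM in KI_Half against 0.869, 3.09 and 6.27 in WT_Half. Its difference was 4.72 ± 0.91 (adjusted p = 0.227). The 4 libraries KI_Half 1, 2, 3 and 5 ran from 44.8 to 183 CPM, while KI_Half 6 and 7, at 1.42 and 3.24, lay within WT_Half. Nos2, the inducible nitric oxide synthase (ENSMUSG00000020826, chromosome 11, 78920787 to 78960254), had 0.553, 23.8 and 89.1 CPM against 0.533, 1.01 and 4.33, a difference of 4.40 ± 0.93 (adjusted p = 0.231). Here KI_Half 5 (4.95 CPM) stood just above the highest WT_Half library, and KI_Half 6 and 7 lay within the WT_Half range.

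Gdf15, a stress-induced cytokine of the TGF-beta family, had 4.22, 7.33 and 11.8 CPM in KI_Half and 1.6, 2.24 and 5.29 in WT_Half, a difference of 1.43 ± 0.29. Only KI_Half 6 lay below the highest WT_Half library. Mdfi, an inhibitor of MyoD-family transcription factors, had 4.69, 17.1 and 34.2 CPM against 3.53, 4.88 and 7.3, a difference of 1.82 ± 0.37. Slc51b, a subunit of the basolateral bile acid and steroid exporter, had 36.6, 88 and 131 CPM against 21.7, 33.5 and 44.6, a difference of 1.32 ± 0.27. For Mdfi and Slc51b, KI_Half 7 was the library inside the WT_Half range. Tac1, the precursor of substance P made by enterochromaffin cells and enteric neurons, had 7.81, 11.6 and 17 CPM against 4.61, 5.74 and 7.91, a difference of 0.93 ± 0.19. In this case KI_Half 6 alone lay inside the range of WT_Half.

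Some genes of this set showed the difference in all 6 KI_Half libraries. Cebpb, a C/EBP transcription factor of inflammation and of the ISR, had 10.1, 16.5 and 20.6 CPM against 4.39, 7.12 and 9.97, a difference of 1.11 ± 0.22. Its highest value was that of KI_Half 6. Samd10, Tpm3-rs7 and Tmem116 also did not overlap. Tpm3-rs7 closely resembles the tropomyosin gene Tpm3, and reads of the pair could be shared between them. Tmem116, which lies 42 kb from Aldh2 on chromosome 5, had 8.01, 10.2 and 15 CPM against 2.18, 3.49 and 6.24, and the smallest adjusted p of all genes (0.106). It was also higher on the control diet, where KI_Con had 12.6 to 16.4 CPM and WT_Con 3.38 to 5.49. Cwh43 (2.8, 6.22 and 8.21 CPM against 1.77, 2.3 and 3.52) and the serine protease gene Prss32 (181, 228 and 231 against 148, 154 and 197) completed the set.

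Among the 12 genes lower in KI_Half were several of the gut wall beneath the epithelium and a peptidase of the brush border. Anpep, the aminopeptidase N that cleaves peptides at the enterocyte surface (ENSMUSG00000039062, chromosome 7, 79821803 to 79861059), had 163, 305 and 488 CPM in KI_Half and 378, 683 and 739 CPM in WT_Half, a difference of -0.96 ± 0.23 (adjusted p = 0.243). KI_Half 7 was the library within the WT_Half range, and the other 5 were lower than every WT_Half library. Col6a3, a chain of collagen VI, had 10.9, 16.3 and 20.8 CPM against 21.6, 24.7 and 33.4, with no overlap (-0.78 ± 0.17). The matrix glycoprotein gene Thbs2 had 3.35, 4.58 and 5.96 CPM against 6.56, 7.82 and 13.3, also without overlap (-0.89 ± 0.20).

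Wnt5a, a ligand of non-canonical Wnt signalling made by gut mesenchyme, had 4.67, 6.02 and 7.46 CPM against 7.92, 9.16 and 16.2 (-0.79 ± 0.19). Mab21l2, a gene of gut smooth muscle and mesenchyme, had 5.35, 5.93 and 6.85 CPM against 7.58, 8.27 and 13.6 (-0.63 ± 0.15). Neither of this pair overlapped between the groups. Gucy1a1, a subunit of the nitric oxide receptor guanylate cyclase, had 5.09, 6.33 and 9.61 CPM against 8.64, 11.4 and 16 (-0.85 ± 0.18), where KI_Half 6 overlapped. Ppp1r14a, an inhibitor of the myosin phosphatase of smooth muscle, had 5.09, 7.77 and 10.9 CPM against 9.95, 13.2 and 20.6 (-0.82 ± 0.19), where KI_Half 7 overlapped. The set also held Cyp4f40, a cytochrome P450 gene of the Cyp4f family (-0.86 ± 0.19), the lectin-like Chodl (-1.06 ± 0.21), Ikbip (-0.64 ± 0.15) and the phosphorylase kinase subunit gene Phkb (-0.41 ± 0.10).

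**Figure D2:**
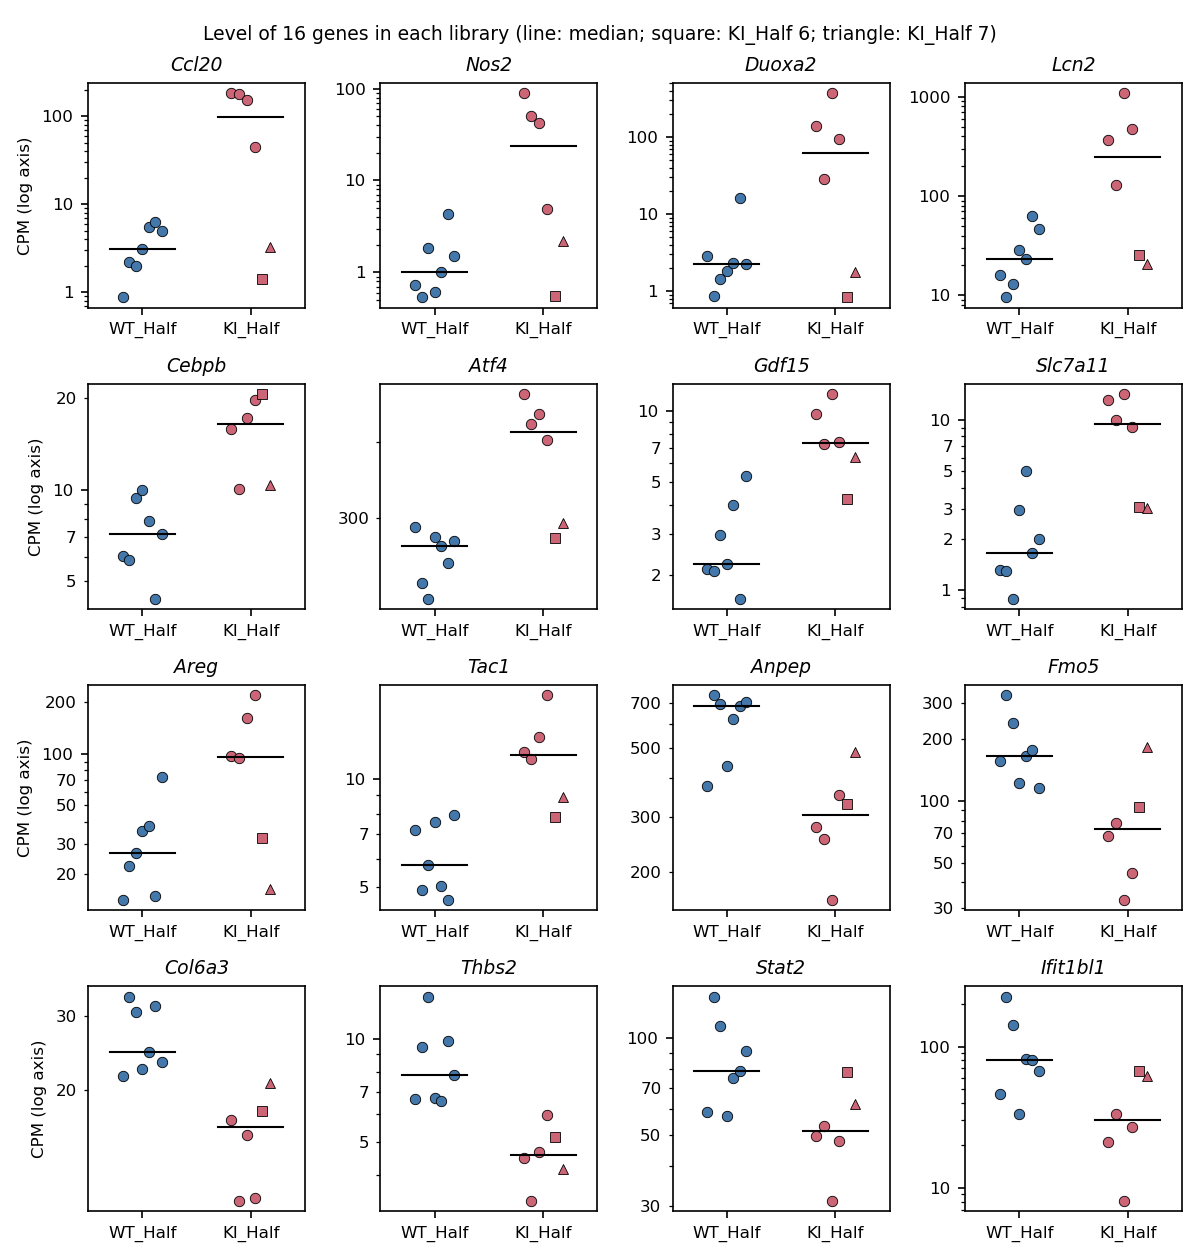
Level of 16 genes (CPM, log axes) in each WT_Half (blue) and KI_Half (red) library, with a line at the group median, a square for KI_Half 6 and a triangle for KI_Half 7. Ccl20, Nos2, Duoxa2 and Lcn2 are high in KI_Half 1, 2, 3 and 5 (Nos2 least in KI_Half 5), while Cebpb, Col6a3 and Thbs2 do not overlap between the groups.

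The list of neutrophil and CCR6 chemokines had higher levels in KI_Half 1, 2, 3 and 5 than in any WT_Half library. That list includes Ccl20, described above, which has the largest difference in it. For neutrophil products, KI_Half 1, 3 and 5 were above every WT_Half library. Of 8 tested neutrophil and CCR6 chemokine genes, all 8 had a positive difference and 7 were higher at an unadjusted p under 0.05, with a median of 1.61 against -0.02 for all genes. Cxcl1, a neutrophil attractant, had 1.86, 11.4 and 18.8 CPM against 1.32, 1.82 and 6.76 (1.96 ± 0.49), and Cxcl2, of the same family, had 1.86, 10.9 and 42.1 against 0.496, 1.33 and 10.2 (2.06 ± 0.74). Csf3, the granulocyte growth factor, had 0.546, 2.7 and 9.14 CPM against 0.171, 0.203 and 2.04 (2.21 ± 0.66). The 4 libraries KI_Half 1, 2, 3 and 5 were above every WT_Half library for Cxcl1 and Csf3, and WT_Half 7 was the highest of its group for all 3 genes.

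Of 10 neutrophil products tested, 5 were higher and 0 lower at an unadjusted p under 0.05 (median 1.17). Lcn2, a siderophore-binding protein that epithelium also secretes, had 20.8, 249 and 1081 CPM against 9.54, 23.4 and 63.2 (3.61 ± 0.80). S100a8, a subunit of calprotectin, had 0.728, 4.86 and 15.1 CPM against 0.456, 1.64 and 4.36 (1.51 ± 0.55), and its partner S100a9 had 1.96, 7.39 and 23.8 against 1.42, 3.76 and 8.83 (1.11 ± 0.52). KI_Half 5 was the highest library for both calprotectin genes and KI_Half 7 the lowest of its group, and for S100a9 the other 5 KI_Half libraries lay within the WT_Half range. The 4 defining neutrophil markers summed to 5.64, 19.6 and 56.3 CPM in KI_Half and 5.01, 9.55 and 20.5 in WT_Half, all 4 with a positive difference and 2 at an unadjusted p under 0.05. In RNA of whole tissue, more cells of a type and more RNA per cell cannot be told apart. The counts of both lists depended on single libraries, with 3 to 7 chemokine genes and 2 to 7 neutrophil products higher when each library was left out in turn (fewest without KI_Half 5).

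Genes of the surface oxidant system of the epithelium had large differences. Duox2, the hydrogen peroxide-producing oxidase, had 3.97, 115 and 675 CPM against 2.79, 7.03 and 78.4 (3.51 ± 1.08), and Duoxa2, its maturation factor, had 0.83, 62.1 and 371 against 0.862, 2.22 and 16.4 (4.73 ± 1.12). KI_Half 6 and 7 were at 5.6 and 3.97 CPM of Duox2, and WT_Half 6 was the highest of its group for both genes. KI_Half 1, 3 and 5 were above every WT_Half library for Duox2, while KI_Half 2 (68 CPM) was within the range, and for Duoxa2 all 4 were above it. Of 10 oxidant-source genes tested, 4 were higher and 1 lower at an unadjusted p under 0.05.

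Regulators of NF-kB, the transcription factor family of inflammatory signalling, had positive differences for 17 of 25 genes, with 11 higher and 0 lower at an unadjusted p under 0.05 (median 0.38). Nfkbia, the inhibitor IkB-alpha that NF-kB itself induces, had 85.6, 240 and 429 CPM against 53.5, 87 and 157 (1.37 ± 0.36). Tnfaip3, the ubiquitin-editing brake A20, had 23.4, 57.7 and 113 CPM against 16.8, 25.4 and 36.5 (1.21 ± 0.32). Bcl3, a nuclear IkB family member, had 74.8, 134 and 180 against 56.5, 84 and 86.4 (0.71 ± 0.19). For all 3 genes KI_Half 6 and 7 lay within the WT_Half range and the other 4 above it. The subunit gene Rela differed by 0.52 ± 0.15.

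ISR genes had higher values in KI_Half. Of 19 regulators and targets tested, 17 had a positive difference, and 11 were higher and 0 lower at an unadjusted p under 0.05 (median 0.60). Atf4 had 279, 415 and 477 CPM against 222, 271 and 290 (0.57 ± 0.13), with KI_Half 6 below and KI_Half 7 (295 CPM) just above the highest WT_Half library. Chac1, which degrades glutathione, had 5.74, 12.9 and 54.7 CPM against 0.731, 2.26 and 10.5 (2.55 ± 0.63). Eif4ebp1, a translation repressor, had 73.1, 135 and 172 CPM against 41.5, 63.8 and 91.9 (0.97 ± 0.21). All 6 KI_Half libraries were above the WT_Half median for these 3 genes.

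Genes of serine, one-carbon and asparagine synthesis included 4 of 13 that were higher (0 lower, median 0.25), and 7 without WT_Half 1. Mthfd2, the mitochondrial one-carbon enzyme, had 50.3, 75.7 and 109 CPM against 29.2, 40.6 and 62.1 (0.79 ± 0.21), and asparagine synthetase Asns had 88.8, 118 and 155 against 39.3, 76.6 and 117 (0.64 ± 0.21). Amino acid carriers included 5 of 20 that were higher (0 lower, median 0.02), but 2 without WT_Half 2 or KI_Half 3 and 3 without WT_Half 1, 3, 5 or 6 or KI_Half 5. Without WT_Half 1, 4 carriers were lower, and without KI_Half 7, 2. Slc7a5, an exchanger of large neutral amino acids, had 29.7, 65.8 and 95.2 CPM against 17.5, 35.1 and 49.8 (0.91 ± 0.27). Among 31 genes of the NRF2 and glutathione defence, 8 were higher and 0 lower (3 higher without KI_Half 3, 5 without WT_Half 4, KI_Half 1 or KI_Half 2), with a median of 0.09 against -0.02 for all genes. Slc7a11, the cystine importer that feeds glutathione synthesis, had 3.06, 9.5 and 14.1 CPM against 0.897, 1.65 and 5.02 (2.01 ± 0.44), with KI_Half 6 and 7 overlapping. Hmox1, haem oxygenase 1, had 7.33, 15.2 and 41.7 CPM against 4.54, 6.75 and 7.47 (1.73 ± 0.39), with KI_Half 6 overlapping. Akr1b8, an aldo-keto reductase, had 27.9, 74.2 and 146 against 14.1, 23.3 and 50.4 (1.45 ± 0.35).

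The promoters of 5 of these genes are shown because their genes had high values in KI_Half 1, 2 and 3 and because each held 1 of the motifs searched. They were chosen for holding a match, from 15 genes looked up, of which 13 were in the RefSeq promoter table (GRCm38.p6) and 6 held at least 1 of the 3 motifs searched on both strands (Tnfaip3, the other match, is not shown). The C/EBP-ATF motif TGATGNAA was found in 3 of 13, against 3.45% of all 32851 promoters. The NF-kB-type motif GGNNNTTCC was found in 4 of 13, against 15.7% of all. The antioxidant core TGACNNNGC was found in 1 of 13, against 10.2%. Those 15 genes were not drawn at random, as they include genes described above as higher in KI_Half. A gene counted if any of its promoters held the motif, while the share of all is per promoter. Enrichment was not tested, and these counts do not show it. Each sequence is the 250 bases before the RefSeq start, 5′ to 3′ on the gene's strand, and capitals mark the matches. Those of Ccl20, Cxcl1 and Nfkbia are of the NF-kB type, with 1 antioxidant core 13 bases before the start of Nfkbia, and those of Slc7a11 and Chac1 are of the C/EBP-ATF type.
Ccl20 (chr1:83116516-83116765, plus strand): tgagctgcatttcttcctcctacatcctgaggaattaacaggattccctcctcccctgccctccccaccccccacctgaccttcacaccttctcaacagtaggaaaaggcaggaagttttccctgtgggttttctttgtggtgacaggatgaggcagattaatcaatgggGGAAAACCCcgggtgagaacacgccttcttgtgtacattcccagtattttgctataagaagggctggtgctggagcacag
Cxcl1 (chr5:90890995-90891244, plus strand): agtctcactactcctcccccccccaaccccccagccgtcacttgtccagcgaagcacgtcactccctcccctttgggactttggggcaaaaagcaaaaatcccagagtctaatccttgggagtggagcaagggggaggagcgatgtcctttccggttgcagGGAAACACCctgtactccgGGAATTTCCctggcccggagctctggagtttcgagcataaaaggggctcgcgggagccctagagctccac
Nfkbia (chr12:55492648-55492897, minus strand): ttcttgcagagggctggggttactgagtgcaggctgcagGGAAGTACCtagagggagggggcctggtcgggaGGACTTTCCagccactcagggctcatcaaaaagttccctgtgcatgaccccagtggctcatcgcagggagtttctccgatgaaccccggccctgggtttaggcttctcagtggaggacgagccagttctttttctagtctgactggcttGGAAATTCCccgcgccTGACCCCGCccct
Slc7a11 (chr3:50443614-50443863, minus strand): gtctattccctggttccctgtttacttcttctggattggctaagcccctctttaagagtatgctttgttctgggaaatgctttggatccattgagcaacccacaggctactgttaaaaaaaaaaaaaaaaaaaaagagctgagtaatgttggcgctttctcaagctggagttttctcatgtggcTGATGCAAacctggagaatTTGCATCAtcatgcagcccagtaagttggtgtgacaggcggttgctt
Chac1 (chr2:119350992-119351241, plus strand): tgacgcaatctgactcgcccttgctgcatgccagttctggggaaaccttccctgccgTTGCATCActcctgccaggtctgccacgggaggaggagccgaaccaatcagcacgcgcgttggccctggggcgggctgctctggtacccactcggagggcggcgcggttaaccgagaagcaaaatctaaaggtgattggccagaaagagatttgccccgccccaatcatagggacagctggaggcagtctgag
The match in Ccl20 begins 80 bases before the start, those in Cxcl1 at 89 and 70, those in Slc7a11 at 66 and 47 and that in Chac1 at 193. Nfkbia has NF-kB-type matches at 211, 178 and 29. A match in letters describes the sequence and does not show that a factor was bound.

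The genes of epithelial growth and of the cell surface named next were each highest in KI_Half 5. Of 13 ligands and receptors of the EGF receptor family, 5 were higher and 0 lower (median 0.57), with 3 higher and a median of 0.17 without KI_Half 5, and 2 lower without KI_Half 7. Areg, the ligand amphiregulin, had 16.3, 95.8 and 218 CPM against 14.1, 26.3 and 73 (1.69 ± 0.52), and the receptor gene Egfr had 19.3, 36.2 and 49.7 against 18.5, 20.6 and 25.9 (0.65 ± 0.19). Further ligands were Tgfa (0.57 ± 0.18) and Hbegf (1.18 ± 0.43). KI_Half 6 and 7 lay within the WT_Half range for Areg and Egfr. Of 15 genes of the Ly6 and Gml cluster, which encode small membrane-anchored proteins and have near-identical copies whose reads may be split, 7 were higher and 0 lower (median 0.81), with 4 higher without KI_Half 5. Ly6g had 11.6, 185 and 474 CPM against 5.9, 42.8 and 63.1 (2.50 ± 0.68). Anxa1, an anti-inflammatory annexin, had 6.26, 29.1 and 59.1 CPM against 6.49, 8.43 and 13.4 (1.71 ± 0.41), and 4 of 12 annexins were higher.

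Genes of glucose use had differences in both directions. Of 26 hypoxia and glycolysis genes, 8 were higher and 2 lower, with a median of -0.02. The higher members included Hk2, hexokinase 2 (35, 159 and 486 CPM against 24.7, 48.7 and 108, 1.89 ± 0.52), and the glucose transporter Slc2a1 (46.2, 91.3 and 152 against 28.6, 53.1 and 66.6, 0.90 ± 0.25). Pfkfb3, which drives glycolytic flux, and the oxygen-sensing factor Hif1a differed by 1.75 ± 0.54 and 1.03 ± 0.34. KI_Half 6 was within the WT_Half range for these 4 genes, KI_Half 7 was within or below it, and KI_Half 2 was also within it for Hk2 and Hif1a. The 2 lower genes became 0 without WT_Half 6 or without KI_Half 5, and 4 without KI_Half 7.

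Genes of enteroendocrine cells, the hormone-secreting cells of the epithelium, mostly had higher values in KI_Half, but the groups overlapped. Of 24 tested, 9 were higher and 0 lower (median 0.39). Over the list, KI_Half 1 and 5 (mean log2 CPM of 2.98 and 3.06) exceeded every WT_Half library, the highest being WT_Half 4 (2.93). KI_Half 2 and 3 (2.90 each), 6 (2.66) and 7 (2.72) lay within the WT_Half range, above its median of 2.48. Chgb, a granin of secretory granules, had 184, 229 and 247 CPM against 96.9, 158 and 186 (0.62 ± 0.17). Its paralogue Chga had 77, 98.6 and 133 CPM against 34.5, 63.2 and 89.1 (0.67 ± 0.20), with KI_Half 7 the highest. Cck, the hormone cholecystokinin, had 41.8, 44.9 and 53.2 CPM against 23.3, 32.8 and 42 (0.50 ± 0.12). Pax6, a factor of endocrine cell identity, had 1.11, 1.93 and 2.19 CPM against 0.869, 1.06 and 1.56 (0.74 ± 0.20). The 5 defining markers summed to 398, 470 and 561 CPM in KI_Half and 212, 338 and 409 in WT_Half, and KI_Half 6 and 7 were above the WT_Half median for all 4 genes. The count of higher genes ran from 7 to 11 when each library was left out.

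Cytosolic ribosomal protein genes had a small difference in 1 direction. All 48 had a positive difference, between 0.07 and 0.57, and 16 were higher at an unadjusted p under 0.05 (median 0.24). Rpl38 had 88.3, 119 and 162 CPM against 66, 85.9 and 101 (0.57 ± 0.13), Rplp2 had 275, 332 and 388 against 197, 229 and 327 (0.45 ± 0.12), and Rps23 had 301, 340 and 431 against 196, 253 and 365 (0.42 ± 0.13). WT_Half 1 was the WT_Half library highest for Rplp2 and Rps23, and without it 46 of 48 were higher. Without KI_Half 2 it was 9, and without WT_Half 2 it was 10. With a covariate for a length index of the libraries, 11 were higher and the median was 0.15. Reads of these genes may also be shared with their many processed pseudogenes. Genes in quartile 1 of transcript length, the shortest, had a median of 0.01, with 341 higher and 203 lower, and those in quartile 4 a median of -0.04, with 214 higher and 351 lower. The length index of a library is the mean log2 CPM of quartile 1 genes minus that of quartile 4 genes. Each gene was first set against its mean over the 13 libraries. The index came from these same counts and may include the ribosomal genes themselves. The smaller difference with it in the fit therefore cannot show whether transcript length matters, which was not tested.

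**Figure D3:**
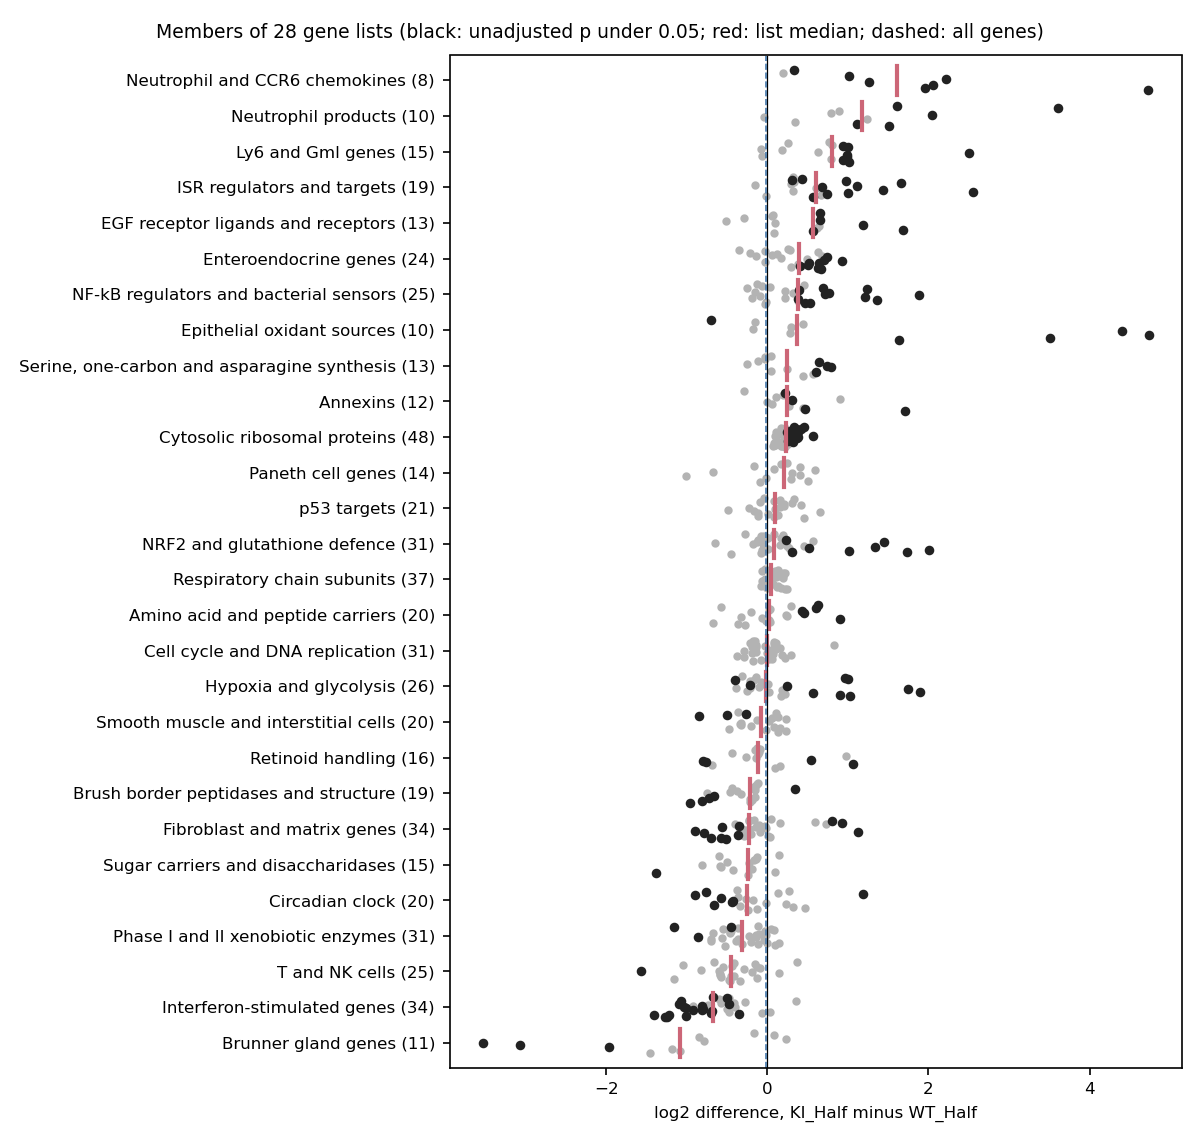
Log2 difference of each member (x axis) of 28 gene lists (y axis, number tested in brackets), with black for an unadjusted p under 0.05, a red line at the list median and a dashed line at the median of all genes. Chemokine genes have a median of 1.61 and interferon-stimulated genes one of -0.68, while cell cycle genes centre on 0.

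Interferon-stimulated genes had lower values in KI_Half. Of 34, 32 had a negative difference, 19 were lower and 0 higher at an unadjusted p under 0.05 (median -0.68). Ifit1bl1, of the IFIT family that binds viral RNA, had 8.09, 30.2 and 66.9 CPM against 33.2, 80.7 and 226 (-1.41 ± 0.49). Ifit2, of the same family, had 2.8, 5.77 and 9.37 CPM against 4.94, 9.23 and 23.9 (-1.01 ± 0.34). Stat2, the transcription factor of type I interferon signalling, had 31.1, 51.3 and 78.5 CPM against 57.2, 78.8 and 134 (-0.68 ± 0.22). WT_Half 2 was the highest library for these 3 genes, and WT_Half 3 the second highest. KI_Half 6 and 7 were the highest of their group over the list, at a mean log2 CPM of 4.52 and 4.26, within the WT_Half range of 3.90 to 5.44. The antiviral genes Mx1 and Bst2 differed by -0.82 ± 0.28 and -0.67 ± 0.23. Without 1 library at a time, 7 to 23 of the 34 were lower (7 without WT_Half 2, 9 without KI_Half 3, 10 without WT_Half 3 or 7, 11 without KI_Half 5 and 12 without KI_Half 1 or 2). The 4 genes Oas1a, Oas1g, Oas2 and Oas3 lie within 2 Mb of Aldh2, and the 30 elsewhere had a median of -0.64 with 16 lower. On the control diet 27 of 34 had a negative difference and 1 was lower at an unadjusted p under 0.05 (median -0.36), but without WT_Con 1 32 of 34 were positive (median 0.29).

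T and NK cell genes had a negative difference for 23 of 25 (median -0.46), with 1 lower. Trac, the constant region of the T cell receptor alpha chain, had 0.262, 0.564 and 2 CPM against 0.794, 1.89 and 4.33 (-1.57 ± 0.48). Without KI_Half 7, the KI_Half library highest in Trac, 9 of the 25 were lower, and without WT_Half 1 it was 3.

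Digestive and detoxifying genes of the enterocyte mostly had negative differences, where 8984 of all 16907 genes had one. The counts lower at an unadjusted p under 0.05 are given for each list, and the share over all genes was 7.58%. For brush border peptidases and structure, 18 of 19 were negative, 4 lower and 1 higher at an unadjusted p under 0.05 (median -0.22). Enpep, aminopeptidase A, had 40, 83.2 and 124 CPM against 80.5, 153 and 182 (-0.81 ± 0.24), and the meprin subunit gene Mep1b had 126, 215 and 341 against 177, 345 and 446 (-0.66 ± 0.25). KI_Half 3 was the lowest library for both genes and KI_Half 7 the highest of its group. Phase I and II xenobiotic enzymes were negative for 27 of 31, 3 lower and 0 higher (median -0.32, and -0.08 without WT_Half 2). Fmo5, a flavin monooxygenase, had 32.9, 72.6 and 183 CPM against 116, 166 and 327 (-1.16 ± 0.36), and Ahr, the receptor that induces several of these enzymes, had 7.73, 12.7 and 13.6 against 9.35, 16.9 and 20.1 (-0.45 ± 0.17). Sugar carriers and disaccharidases were negative for 13 of 15 and 1 was lower. Slc5a4a, a sodium-glucose cotransporter family member, had 0.198, 1.43 and 3.75 CPM against 1.09, 4.25 and 8.47 (-1.38 ± 0.51).

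The counts of these 3 lists depended on single libraries. Without KI_Half 7 the counts lower were 8 of 19, 12 of 31 and 7 of 15 in the order above. Without WT_Half 1, the WT_Half library lowest in all 3 lists and highest in cell cycle genes, they were 9, 12 and 8. The xenobiotic count was also 6 without WT_Half 7, 5 without KI_Half 6 and 2 without KI_Half 5. The sugar count was 2 without WT_Half 7. Carotenoid genes differed in both directions. Bco1, which cleaves beta-carotene to retinal, had 6.33, 15.8 and 29.8 CPM against 3.11, 6.81 and 14.2 (1.06 ± 0.36), and Bco2, which cleaves carotenoids in mitochondria, had 23.4, 37.5 and 89.3 against 53.8, 78.8 and 109 (-0.76 ± 0.28). Of 16 retinoid genes 2 were higher and 2 lower (4 lower without KI_Half 7).

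**Figure D4:**
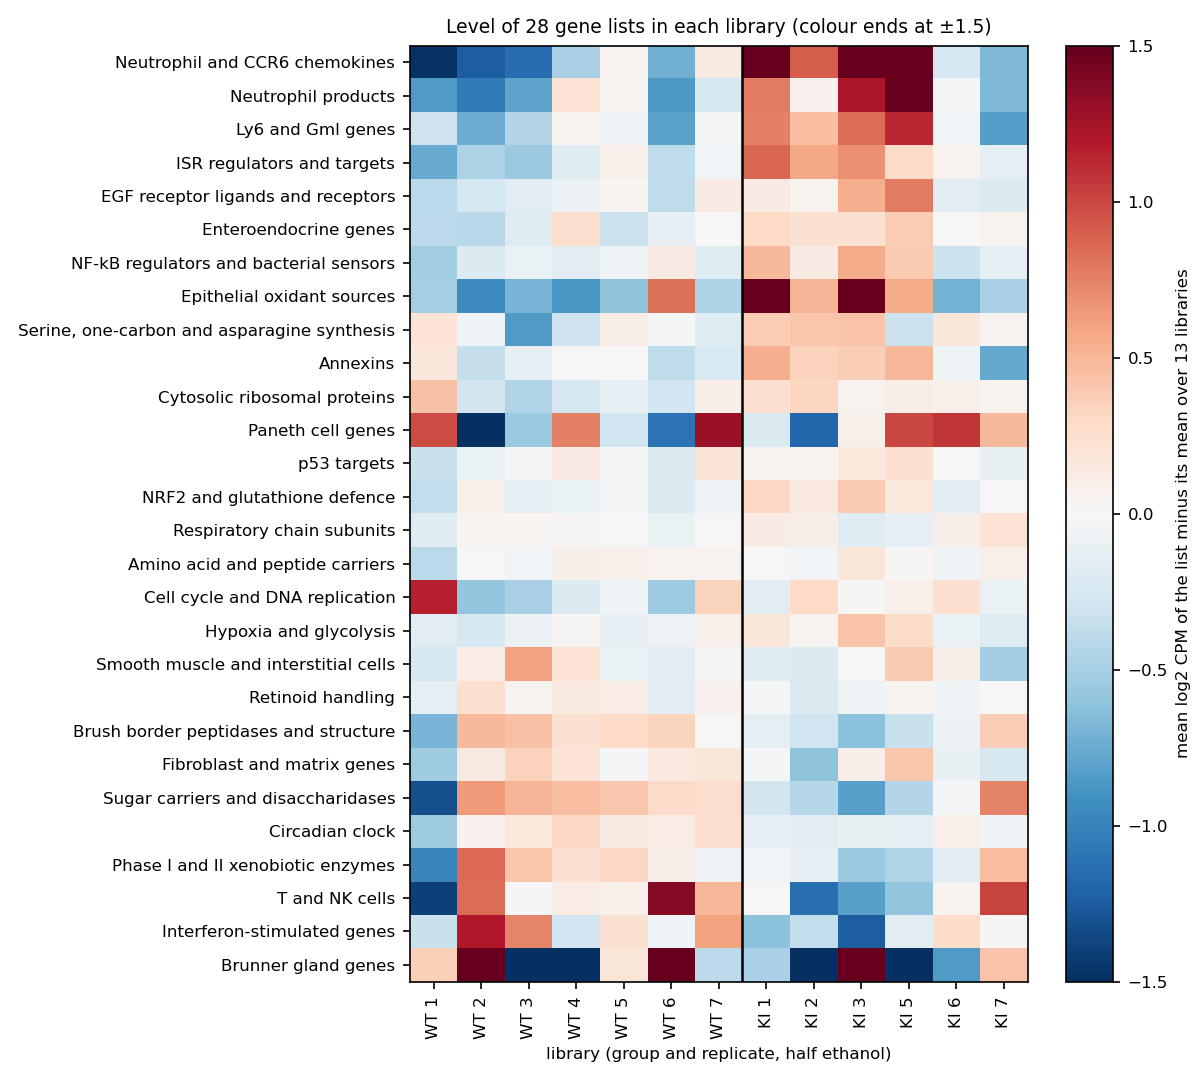
Mean log2 CPM of each of 28 gene lists (rows) in each library (columns, WT_Half left and KI_Half right of the line), minus its mean over the 13 libraries, with the colour scale ending at 1.5 either way. KI_Half 1, 2, 3 and 5 are above every WT_Half library in chemokine and ISR levels. KI_Half 6 and 7 lie above the WT_Half median but within the WT_Half range for both lists. WT_Half 1 is high in cell cycle genes.

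Fibroblast and matrix genes, which build the connective tissue under the epithelium, included 8 lower and 3 higher of 34 (median -0.22). Col1a1, a chain of collagen I, had 33.1, 49.2 and 64.4 CPM against 49.4, 67.1 and 89.9 (-0.51 ± 0.16), and Col3a1, of collagen III, had 30.6, 40.4 and 64 against 47.1, 62.8 and 104 (-0.70 ± 0.22). Timp1, an inhibitor of matrix metalloproteinases, lay the other way at 2.45, 3.46 and 5.44 CPM against 1.47, 2.36 and 2.46 (0.81 ± 0.20). KI_Half 6 was the only library to overlap WT_Half for Timp1. With the length covariate, whose index came from these same counts, 5 were lower and 4 higher (median -0.03). Without WT_Half 1, 14 were lower and 1 higher. The count higher was also 1 without WT_Half 2 or KI_Half 5, and 5 without KI_Half 6. Of the 5 defining fibroblast markers, 3 were lower, with sums of 112, 189 and 206 CPM in KI_Half and 153, 250 and 294 in WT_Half. Of 20 smooth muscle and interstitial cell genes 3 were lower (5 without WT_Half 1, KI_Half 5 or KI_Half 6), namely Gucy1a1, its partner subunit Gucy1b1 (-0.50 ± 0.16) and the phosphodiesterase Pde5a (-0.26 ± 0.09).

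Clock genes included 6 lower and 1 higher of 20 (median -0.25), with 3 lower without WT_Half 3 or 5 and 3 higher without KI_Half 6. Nfil3, a repressor of clock output, had 8.78, 18.2 and 36.9 CPM against 5.45, 8.09 and 14.3 (1.18 ± 0.35), while Per3 had 10.2, 16.4 and 24.5 against 15.7, 26.2 and 38.2 (-0.66 ± 0.24) and Nr1d1, which encodes REV-ERB-alpha, 33.6, 35.9 and 52.2 against 35.4, 45.8 and 71 (-0.43 ± 0.17). The groups overlapped for all 3. Of 31 cell cycle genes, 21 p53 targets, 14 Paneth cell genes and 37 respiratory chain subunits, 0 passed an unadjusted p under 0.05 with edgeR, and 0, 1, 0 and 0 an adjusted p under 0.05 with limma-voom. Without WT_Half 1, 8 cell cycle genes were higher, and without KI_Half 3, 9 respiratory chain subunits were. At most 2 p53 targets passed in either direction when 1 library was left out.

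The control-diet comparison asked whether the genotypes differed without ethanol in the diet. With edgeR 0 of 16813 genes passed, and 707 (4.21%) were higher and 1019 (6.06%) lower in KI_Con at an unadjusted p under 0.05 (466 and 371 without WT_Con 3). Of the 1206 genes higher in KI_Half at an unadjusted p that were tested on both diets, 587 (48.7%) had a positive difference on the control diet, against 47% of all genes, and of the 1278 lower in KI_Half, 693 (54.2%) had one. Ccl20 had 3.04 to 5.92 CPM in KI_Con and 2.71 to 5.14 in WT_Con, and Lcn2 2.77 to 5.45 and 2.46 to 9.3. Duox2 was at 1.12 to 2.17 CPM in KI_Con and 1.39 to 51.1 in WT_Con. The levels of Ccl20, Lcn2 and Duox2 in KI_Con were thus within or below those of WT_Con, except for the highest Ccl20 value.

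For the enterocyte lists the sign was the reverse on the control diet. All 19 brush border genes, all 15 sugar genes and 27 of 31 xenobiotic genes had a positive difference there, of which 1, 2 and 4 were at an unadjusted p under 0.05. WT_Con 3 was the lowest WT_Con library in these 3 lists. Without it 18, 14 and 26 were positive, and the medians went from 0.34, 0.40 and 0.34 to 0.21, 0.23 and 0.18. ISR genes had a median of -0.18 (0.03 without WT_Con 3), and Brunner gland genes one of -3.02 with 3 of 11 lower (-0.74 and 0 without WT_Con 3). Whether the genotype difference itself varied with diet was tested over 21 libraries, which include the 13 above. No gene passed with edgeR, and 1153 (6.78%) were higher and 1114 (6.55%) lower at an unadjusted p under 0.05. Without WT_Con 3 these were 525 and 685, without WT_Half 1 2132 were higher, and without KI_Half 7 1828 were lower. The interaction was at an unadjusted p under 0.05 for 9 of 19 ISR genes (all positive) and 10 of 31 xenobiotic genes (all negative), and for 6 and 5 without WT_Con 3. The xenobiotic count was also 5 without KI_Con 2, 6 without WT_Con 4, WT_Half 2 or WT_Half 3, and 15 without WT_Half 1 or KI_Half 7. For Mthfd2 the interaction was 1.95 ± 0.41 and for Gucy1a1 -1.03 ± 0.24, each with adjusted p = 0.295 (0.691 without WT_Con 3). In Mthfd2, WT_Con 3 had 54.3 CPM and the other WT_Con libraries at most 34.1.

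**Figure D5:**
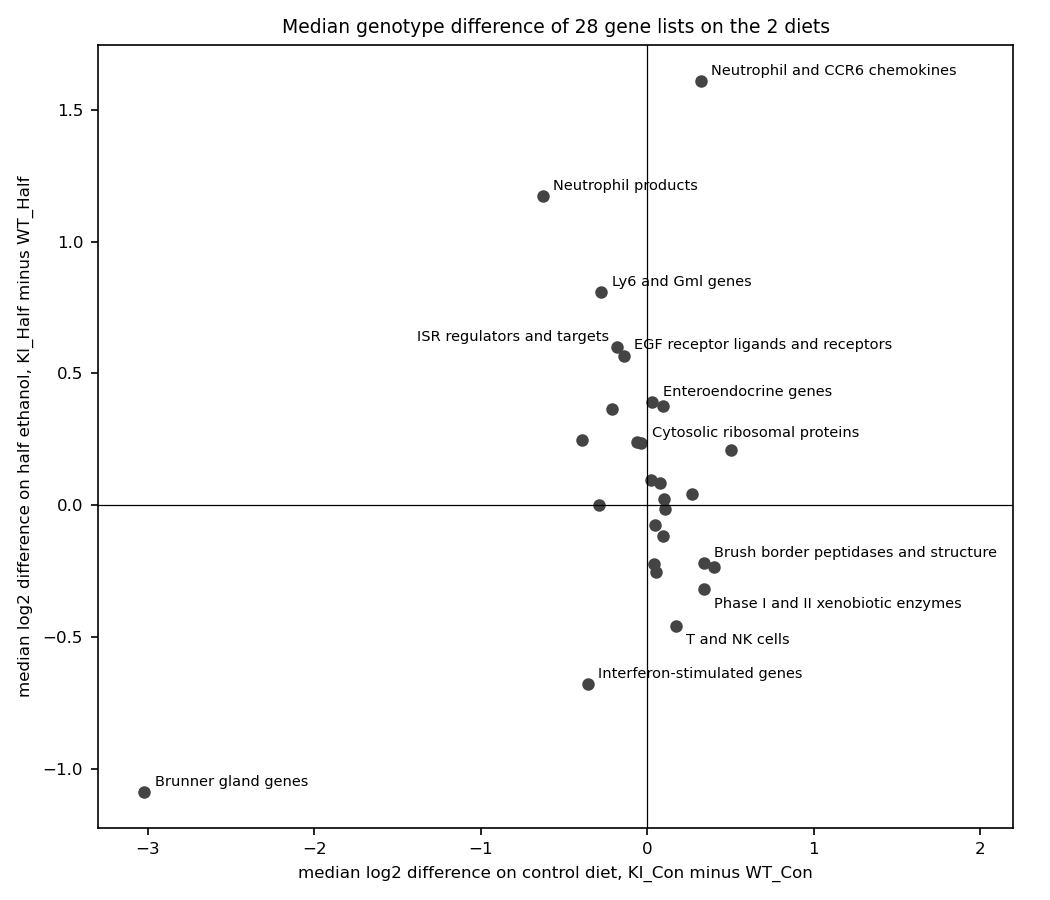
Median log2 difference of each of 28 gene lists on the control diet (x axis, KI_Con minus WT_Con) and on ethanol (y axis, KI_Half minus WT_Half). Chemokine genes have a median of 0.32 on the control diet (5 genes tested) and 1.61 on ethanol (8 genes, and 1.02 for the same 5), and the Brunner gland medians, -3.02 and -1.09, become -0.74 without WT_Con 3 and -0.06 without WT_Half 6.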

How the data were processed

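The deposited counts are whole reads per gene. Per the submitters' processing notes, the authors used FastQC, Trimmomatic, HISAT2 (GRCm38), SAMtools, featureCounts and DESeq2, without versions there. Strand setting, annotation release and multi-mapping treatment were not given in the sources used here. Log2 fold changes with adjusted p-values were also deposited by the authors, per the file headers, which served only to count their calls.

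Where an identifier was repeated, only its first line was kept. Libraries were fitted with edgeR 4.0.16 (R 4.3.3), TMM scaling, the default low-count filter by group, and Benjamini-Hochberg adjustment over all genes (threshold 0.05). The tests are two-sided. CPM uses TMM library sizes. Alternatives were DESeq2 1.42.0, limma-voom (limma 3.58.1), other scaling, no filter, other dispersion settings, a replicate block, a Brunner gland covariate, a fit of all 25 libraries and leaving out each library. A transcript length covariate, list counts without KI_Half replicate 7, and control-diet and interaction list counts without each library, were added after seeing the data. A further fit without KI_Half 6 and 7 was run and dropped, because it chose libraries by the measured outcome. Of the fits, only the edgeR comparison of KI_Half with WT_Half was run on simulated counts, and its outcome is not given here.

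Named genes are 12 higher and 12 lower ones ranked by p (average log2 CPM of at least 1, no receptor segments or unnamed genes), up to 5 with the smallest p from each list described, and Aldh2. The result of 1 of these genes is not reported here. Members and lists were chosen with earlier results of these data known, and the 28 lists described were picked from 60.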

Additional observations from a re-analysis of the deposited data

Results flagged for a closer look

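In each of the 4 groups, the highest or lowest library of each of the 89 named genes was compared with its neighbour. In 14 of 356 such sets it stood far from the others, where chance gives about 1 in 20. No explanation was tested for them. In KI_Half, replicate 7 was low for Gml (22.7 CPM, next 56.9), Gml2 (7.79, next 21.7) and Prss32 (181, next 216). In WT_Half, Duoxa2 was high in replicate 6 (16.4 CPM, next 2.83) and Pax6 in replicate 1 (1.56, next 1.08), while Bcl3 was low in replicate 2 (56.5, next 72) and Ahr in replicate 7 (9.35, next 15.3). In KI_Con, Cxcl1 was low in replicate 2 (0.591 CPM, next 0.908), and high values were found for Csf3 in replicate 3 (0.0624, the others at 0), Slc7a5 in replicate 3 (13.7, next 9.16), Ly6g in replicate 2 (0.887, next 0.462) and Gml2 in replicate 4 (2.21, next 0.592). In WT_Con, replicate 3 was high for Anxa1 (34.9 CPM, next 7.67) and low for Bco2 (51.7, next 98.6).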

How the results depend on the processing

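Of the 89 named genes, none changed direction under any alternative run. Genes higher and lower at an adjusted p under 0.05 in KI_Half vs WT_Half numbered 120 and 51 with DESeq2, 632 and 812 with limma-voom (2436 and 2704 unadjusted), 5 and 1 with all 25 libraries in the fit, 1 and 0 with the Brunner gland covariate, and 30 and 2 with the transcript length covariate, added after seeing the data. Other scaling, no low-count filter and other dispersion settings gave 0. Leaving out 1 library gave 0 to 72 higher (72 without KI_Half 7) and 0 to 31 lower, and 897 to 2145 and 775 to 2103 unadjusted. In KI_Con vs WT_Con, DESeq2 gave 5 and 3 and limma-voom 1 and 0, and leaving out 1 library gave 0 to 1 higher and 0 lower (398 to 1182 and 371 to 1670 unadjusted). For the interaction DESeq2 gave 25 and 6 and limma-voom 275 and 606 (2077 and 2225 unadjusted), and leaving out 1 library gave 525 to 2132 and 685 to 1828 unadjusted. Replicate numbers did not pair the libraries: same-numbered libraries correlated at -0.30 to -0.03, and none correlated best with its own number. With the replicate block, KI_Half vs WT_Half gave 0 and 0 (812 lower unadjusted), KI_Con vs WT_Con 1 lower and the interaction 1 lower. The cause of these changes was not tested. List medians near 0 changed sign under some alternatives, for amino acid carriers, hypoxia, smooth muscle and cell cycle genes. The Brunner gland median was not near 0 in the main fit (-1.09) but was 0.07 with the replicate block. Counting error is small at these depths except for genes near 1 CPM, and the spread between 6 and 7 libraries limits the rest.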

Other observations

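Genes near Aldh2 were looked at after their values were seen. Of 81 genes tested within 2 Mb of Aldh2, 4 were higher and 11 lower in KI_Half at an unadjusted p under 0.05. The shares over all genes were 7.33% higher and 7.58% lower. The 11 lower genes included Oas1g, Oas2, Oas3 and Adam1a. The 4 higher genes were Tmem116, Mapkapk5, the histone demethylase gene Kdm2b and the calcium channel gene Orai1. Kdm2b differed by 0.60 ± 0.14 on ethanol and 0.61 on the control diet, and Orai1 by 0.85 ± 0.24 and 0.41. Mapkapk5, a stress-activated kinase gene, differed by 0.56 ± 0.21 on ethanol and -0.01 on the control diet. Adam1a, whose annotated span overlaps those of Tmem116 and Mapkapk5, differed the other way (-0.88 ± 0.28), and how reads of these overlapping genes were divided is not known here.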
